A study of Mus musculus with 12 samples.

Results

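The 10 resident Kupffer cell genes were followed by gene symbol across all 12 liver RNA libraries of the series: Clec4f, Vsig4, Timd4, Cd5l, Marco, C1qa, C1qb, C1qc, Adgre1 and Cd163, which is 10 of the 50600 annotated genes. The genes were listed by name as Kupffer cell genes, not by a threshold on the counts. All 10 passed the filter on low counts, and each was tested among 15219 genes.

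The livers came from Rosa26-LSL-dCas9-p300 mice, which carry at Rosa26 a fusion of nuclease-dead Cas9 to the histone acetyltransferase p300 behind a stop cassette that Cre removes. The 3 groups of 4 libraries were AAV with a Pdx1 gRNA at 1e+12 viral genomes per mouse, AAV with a control gRNA at the same dose, and PBS without virus. Virus (AAV.Cbh.gRNA) or PBS was injected by tail vein in mice about 8 weeks old, the liver was taken 2 weeks later, and all 3 groups were of the same strain. The source of Cre, and so which liver cells held the fusion, and the animals' sex are not given in the sources used here. Nothing in the labels says that each library was a separate mouse, so the spread behind each p-value is that among libraries and may be in part technical.

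Kupffer cells are the macrophages that live in the liver sinusoids, where they take up particles, dying cells and old red cells from portal blood. They are seeded before birth and renew themselves under signals from endothelial cells, stellate cells and hepatocytes. When they are lost, monocytes from the blood can take their place and acquire their genes stepwise, with Clec4f early and Timd4 late. Their gene programme rests on general macrophage factors such as PU.1 (Spi1) and on factors of the tissue such as Id3, Spic and the LXR-alpha receptor (Nr1h3). In bulk liver RNA, fewer cells of a type and less RNA per cell cannot be told apart.

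Libraries held 13531769 to 18063529 assigned counts with the Pdx1 gRNA, 16963079 to 22008046 with the control gRNA and 11824767 to 17870498 with PBS. The members had 20 to 6703 counts per library, so all were measured above 0 in every library. The targeted gene, Pdx1, had 1.35, 2.36, 4.08 and 13.004 CPM (counts scaled to library size) in Pdx1 gRNA libraries 1 to 4, at most 0.111 CPM in the control gRNA libraries and 0 counts in the PBS libraries. Xist, from the inactive X, was at 2.61 CPM in PBS library 2 and 3.64 CPM in PBS library 3, whereas it ran from 692 to 1347 CPM elsewhere. Y-linked Ddx3y was at 80.8 CPM and 70.0 CPM in these PBS libraries and did not exceed 0.187 CPM in the remaining 10. The PBS group thus held both sex patterns, and so more than 1 animal, and the virus groups held only 1 pattern. Values without PBS libraries 2 and 3 are therefore given beside most of the results that they touch.

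Promoter sequence is shown for 4 members that stand for the different behaviours described below. C1qb stands for the C1q chains, whose counts moved almost as one. Marco and Cd163 are the pair of members that differed most from each other across libraries, and Vsig4 is a complement receptor. RefSeq promoter entries matched 8 of the 10 members, and each line gives the 250 bases before the RefSeq start site, 5′ to 3′ on the gene's strand, in GRCm38.p6. Capitals mark GAGGAA, the core that PU.1 recognises, and TGCTGA, a half-site of MAF factors, where they read on the gene's strand or, as their reverse complements, on the other.
C1qb promoter, chr4:136886201-136886450, minus strand: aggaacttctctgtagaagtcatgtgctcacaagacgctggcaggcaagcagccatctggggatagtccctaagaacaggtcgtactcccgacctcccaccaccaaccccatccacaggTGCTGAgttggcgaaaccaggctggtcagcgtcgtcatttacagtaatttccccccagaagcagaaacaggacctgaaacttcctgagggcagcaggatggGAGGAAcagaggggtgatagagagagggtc
Marco promoter, chr1:120505025-120505274, minus strand: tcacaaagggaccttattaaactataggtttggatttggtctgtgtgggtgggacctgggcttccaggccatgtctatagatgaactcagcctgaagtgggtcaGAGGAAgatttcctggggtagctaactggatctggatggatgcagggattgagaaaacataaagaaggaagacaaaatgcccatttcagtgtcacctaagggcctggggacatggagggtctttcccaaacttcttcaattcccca
Vsig4 promoter, chrX:96293439-96293688, minus strand: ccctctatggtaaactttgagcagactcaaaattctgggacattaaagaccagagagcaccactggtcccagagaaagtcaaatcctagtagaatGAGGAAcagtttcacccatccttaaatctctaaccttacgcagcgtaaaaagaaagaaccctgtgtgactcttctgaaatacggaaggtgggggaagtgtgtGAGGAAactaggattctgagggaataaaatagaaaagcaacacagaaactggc
Cd163 promoter, chr6:124304401-124304650, plus strand: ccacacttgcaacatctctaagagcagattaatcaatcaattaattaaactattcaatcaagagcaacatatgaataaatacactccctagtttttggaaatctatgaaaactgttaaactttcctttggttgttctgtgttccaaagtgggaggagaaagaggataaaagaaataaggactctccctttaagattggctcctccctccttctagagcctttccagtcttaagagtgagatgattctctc

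The C1qb window held GAGGAA beginning 30 bases before the start site and TGCTGA beginning 131 bases before it. In Marco GAGGAA began 146 bases before the start site, and in Vsig4 it occurred at 155 and at 53 bases before it. Neither motif was in the Cd163 window. Counting both strands, GAGGAA was present in 5 of the 8 member promoters (Marco, Cd5l, C1qb, C1qc and Vsig4), against 23.1% of all 27025 RefSeq promoter windows of that length. TGCTGA was present in 4 of 8 (Cd5l, C1qb, Clec4f and Timd4), against 15.8% of all. The AP-1 motif TGANTCA, found in 6.87% of all windows, and the E-box CACGTG of MiT factors, found in 6.05%, were in 0 of the 8. A match of letters is a description of the sequence and not a bound site. Matches of TGANTCA and TGCTGA can share the letters TGA.

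Per length, the lectin Clec4f and the secreted members stood highest in control gRNA livers and the scavenger receptor for haemoglobin lowest. In RPKM, which is CPM per kilobase of exon, control gRNA livers averaged 85.8 ± 39.0 for C1qa, 78.6 ± 53.1 for Cd5l, 68.3 ± 29.1 for C1qb, 52.8 ± 33.0 for Clec4f and 44.0 ± 19.4 for C1qc (SD, n = 4 each). Marco followed at 31.7 ± 33.1 RPKM and Vsig4 at 11.3 ± 7.71 RPKM. Adgre1 at 3.96 ± 2.21 RPKM, Timd4 at 3.33 ± 3.14 RPKM and Cd163 at 1.72 ± 0.825 RPKM were the lowest. The SD of neighbours in this order was larger than the step between them in most cases, so the order among the first 5 is not resolved. In PBS livers the range ran from 4.08 ± 3.25 RPKM for Cd163 to 44.5 ± 19.7 RPKM for C1qa (SD, n = 4).

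The members that bind or engulf particles come first. Clec4f is a C-type lectin that binds galactose-bearing glycans and in mice is restricted to Kupffer cells (ENSMUSG00000014542.3, chromosome 6, 83644542 to 83656187, minus strand, mm10). Clec4f had 96.1, 64.4, 60.0 and 143 CPM in Pdx1 gRNA libraries 1 to 4. The control gRNA libraries had 61.4, 224, 174 and 62.8 CPM of Clec4f. In the PBS libraries Clec4f stood at 73.4, 143, 50.5 and 155 CPM. Each group held a high and a low library, and the 3 ranges overlapped over most of their length.

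Timd4 encodes Tim-4, the receptor for phosphatidylserine on dying cells that marks long-resident Kupffer cells (ENSMUSG00000055546.6, chromosome 11, 46810800 to 46844332, plus strand). Its level was 5.85, 4.35, 3.70 and 9.09 CPM with the Pdx1 gRNA, 2.13, 16.6, 7.90 and 2.27 CPM with the control gRNA, and 4.32, 11.2, 4.41 and 22.4 CPM with PBS. The lowest and some of the highest libraries both lay in the control gRNA group, which spanned the Pdx1 gRNA group on both sides. Vsig4, or CRIg, is the receptor that catches particles coated with complement C3 fragments (ENSMUSG00000044206.3, chromosome X, 96247203 to 96293438, minus strand). Vsig4 had 13.4, 7.67, 5.74 and 17.6 CPM with the Pdx1 gRNA, 8.66, 29.5, 23.2 and 5.65 CPM with the control gRNA, and 5.82, 25.5, 11.6 and 40.2 CPM with PBS. The lowest library of each group was near the same level, and the highest was a PBS library.

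Marco is a class A scavenger receptor for bacteria and particles that macrophages outside the liver can also carry (ENSMUSG00000026390.7, chromosome 1, 120474538 to 120505024, minus strand). It had 15.8, 20.1, 16.8 and 94.2 CPM in Pdx1 gRNA libraries 1 to 4. The control gRNA libraries had 12.1, 143, 79.4 and 9.14 CPM, and the PBS libraries had 6.95, 5.23, 2.05 and 60.0 CPM. In PBS livers its highest library stood 29.3-fold above its lowest, and this fold was 5.94 with the Pdx1 gRNA and 15.7 with the control gRNA. One library made most of the Marco signal in the Pdx1 gRNA group and another did so in the PBS group. Cd163 is the receptor for haemoglobin bound to haptoglobin (ENSMUSG00000008845.9, chromosome 6, 124304656 to 124330527, plus strand). It had 12.4, 4.42, 8.16 and 18.9 CPM with the Pdx1 gRNA, 6.19, 15.2, 10.7 and 5.54 CPM with the control gRNA, and 11.9, 48.8, 12.1 and 16.3 CPM with PBS. PBS library 2 was the highest of all 12, and of the control gRNA libraries only library 2 reached into the PBS range.

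Among the secreted members, Cd5l encodes AIM, a serum protein that macrophages release and that binds IgM (ENSMUSG00000015854.7, chromosome 3, 87357881 to 87371073, plus strand). Cd5l had 89.6, 75.2, 53.1 and 186 CPM with the Pdx1 gRNA, 74.2, 226, 277 and 62.4 CPM with the control gRNA, and 44.0, 102, 32.0 and 175 CPM with PBS. The same libraries were high as for Clec4f. C1qa, C1qb and C1qc encode the A, B and C chains of C1q, the recognition unit of the classical complement pathway. They lie side by side on the minus strand of chromosome 4: C1qb (ENSMUSG00000036905.8) at 136880129 to 136886187, C1qc (ENSMUSG00000036896.5) at 136889804 to 136893065 and C1qa (ENSMUSG00000036887.5) at 136895917 to 136898803. No annotated gene overlapped the span of any of the 10 members, so reads counted without regard to strand had no annotated partner to be mixed with.

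C1qa had 54.4, 38.8, 31.8 and 69.0 CPM with the Pdx1 gRNA, 62.3, 133, 113 and 48.3 CPM with the control gRNA, and 40.6, 45.9, 24.7 and 73.8 CPM with PBS. C1qb had 42.5, 33.5, 24.0 and 59.0 CPM with the Pdx1 gRNA, 52.6, 103, 100.04 and 41.8 CPM with the control gRNA, and 28.4, 45.7, 19.1 and 69.6 CPM with PBS. C1qc had 47.0, 33.5, 27.3 and 63.6 CPM with the Pdx1 gRNA, 60.6, 124, 109 and 46.2 CPM with the control gRNA, and 28.5, 51.8, 16.7 and 73.2 CPM with PBS. For each chain, control gRNA libraries 2 and 3 were the 2 highest of all 12, and PBS library 3 was the lowest. Adgre1 encodes F4/80, an adhesion receptor on most mouse tissue macrophages (ENSMUSG00000004730.14, chromosome 17, 57358686 to 57483529, plus strand). Adgre1 had 8.08, 5.01, 5.14 and 16.7 CPM with the Pdx1 gRNA, 8.21, 17.2, 20.6 and 5.43 CPM with the control gRNA, and 4.98, 26.2, 5.74 and 58.6 CPM with PBS. PBS library 4 stood far above the rest for this receptor.

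**Figure D1:**
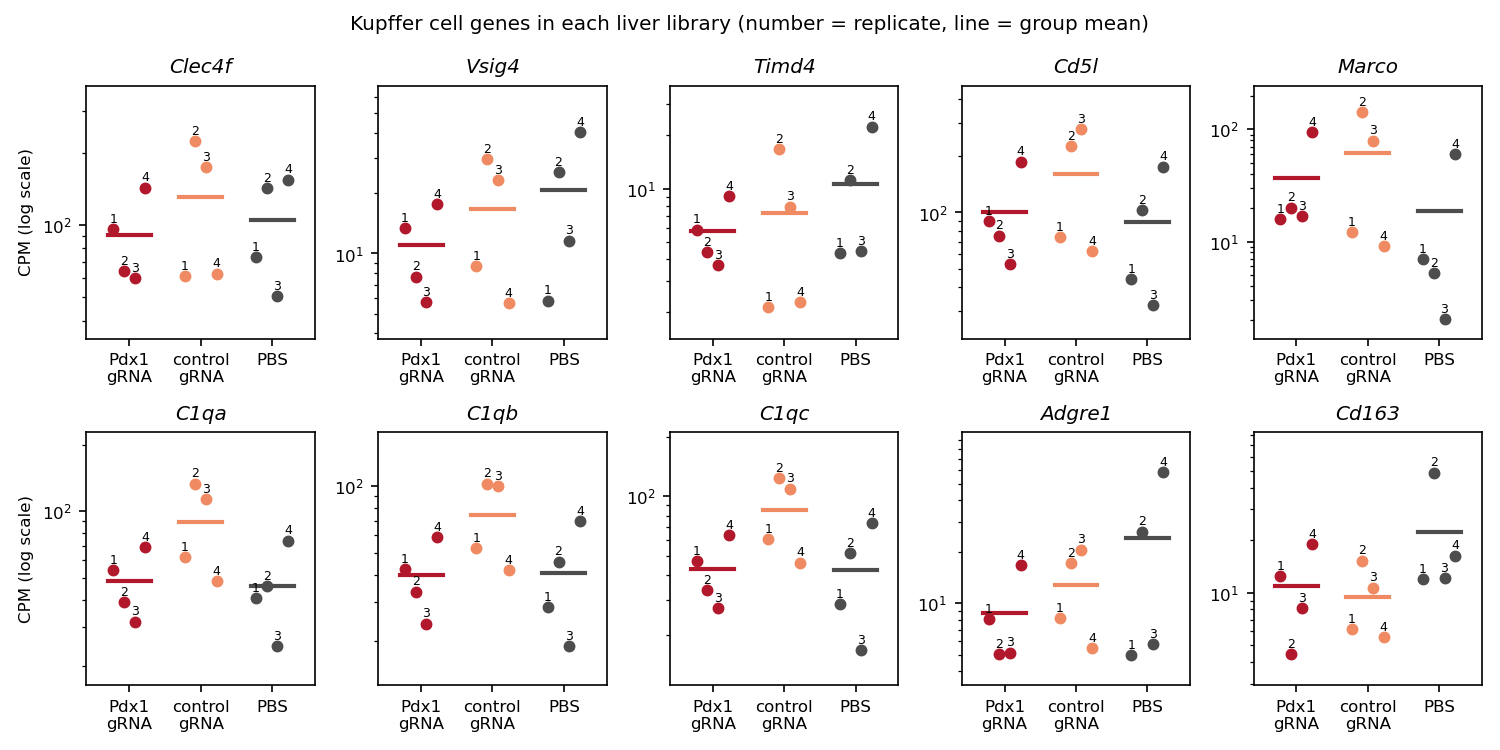
CPM of each of the 10 genes (log axis, one panel per gene) in the 12 libraries, with the replicate number beside each point and a line at the mean of the 4 libraries of a group. Within each group 1 or 2 libraries stand high for nearly every gene, such as Marco at 94.2 CPM in Pdx1 gRNA library 4, and the groups overlap in all 10 panels.

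The members varied together from library to library, and every group held high and low libraries. In log2 CPM centred on each gene's mean over 12 libraries, the mean over the 10 members was -0.09, -0.61, -0.77 and 0.72 in Pdx1 gRNA libraries 1 to 4. It was -0.43, 1.28, 0.98 and -0.73 in the control gRNA libraries and -0.76, 0.38, -1.11 and 1.12 in the PBS libraries. Pdx1 gRNA library 4, control gRNA library 2 and PBS library 4 lay above the gene's own mean for 10 of 10 members. Pdx1 gRNA library 3 and control gRNA library 4 did so for 0 of 10. Within the Pdx1 gRNA group, library 4 was the highest for 10 of 10 members and library 3 the lowest for 7. Among control gRNA livers, library 2 was the highest for 8 members and library 3 for 2, and library 4 was the lowest for 8. Among PBS livers, library 4 was the highest for 9 members and library 2 for 1, and the lowest was library 3 for 6 and library 1 for 4.

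**Figure D2:**
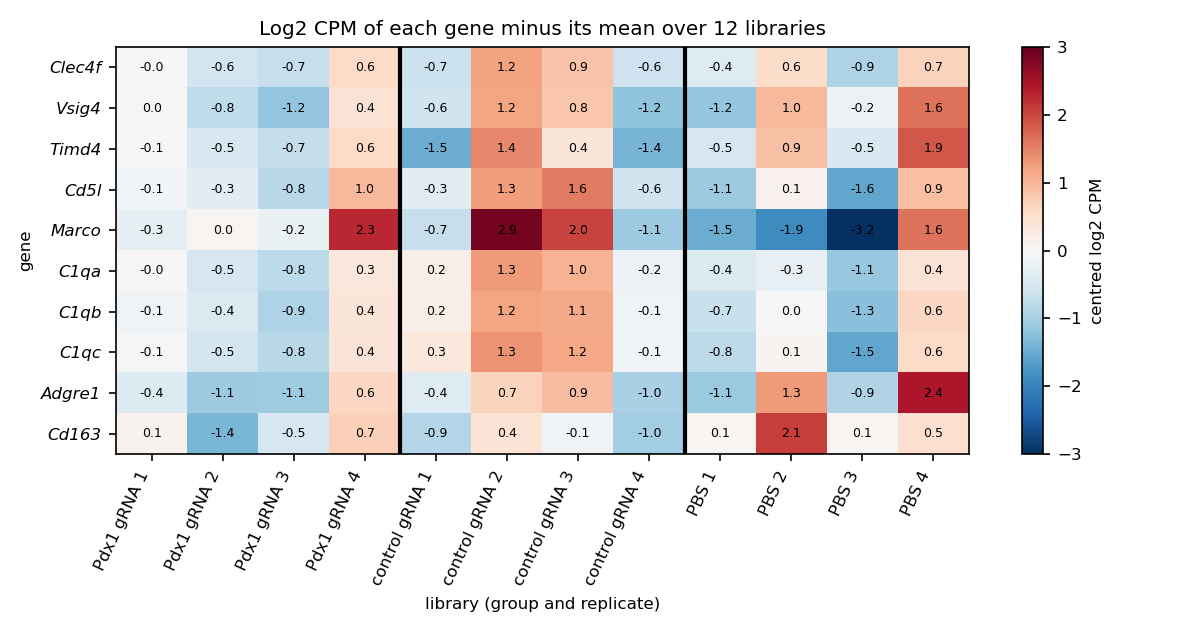
Log2 CPM of each gene minus its own mean over the 12 libraries (rows: genes; columns: libraries in 3 groups; red above and blue below the mean). Columns are mostly of one colour, as in Pdx1 gRNA library 4, where all 10 genes are above their mean, while Marco has the widest range and Cd163 peaks in PBS library 2.

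Likeness of 2 patterns was measured as the root mean square difference of centred log2 CPM over the 12 libraries, where 0 means identical patterns and a wider swing counts as a difference. The C1q chains were the closest members, with differences of 0.12 between C1qb and C1qc, 0.14 between C1qa and C1qb, and 0.20 between C1qa and C1qc. Marco and Cd163 were the farthest pair, at 1.95. Against the mean pattern of the members, Clec4f differed by 0.21, Cd5l by 0.28, C1qb by 0.34, C1qc by 0.38, C1qa by 0.39, Vsig4 by 0.43, Timd4 by 0.52 and Adgre1 by 0.55. Cd163 differed by 0.83, near the median of 0.90 over the 12334 genes ranked, and Marco by 1.20, above it. The mean pattern includes the member compared, which draws members toward it but not the non-members ranked. Marco differed by the width of its swings as well as by its low PBS libraries 2 and 3. Its high libraries were those of most other members, as the plot of centred values shows. Among the 5 non-members closest to the mean pattern were Siglece at 0.27, Lyz2 at 0.28, Btbd11 at 0.29 and Cmklr1 at 0.33. Siglece is an inhibitory sialic acid receptor of myeloid cells, Lyz2 the macrophage lysozyme and Cmklr1 the chemerin receptor. Reads of Lyz2 can be shared with its close copy Lyz1.

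Against PBS, livers given the control gRNA had no member past the threshold, although many other genes of the transcriptome changed. By edgeR's quasi-likelihood test with Benjamini-Hochberg adjustment, 0 of 10 members were called at an adjusted p under 0.05, against 32.1% of all genes tested. At an unadjusted p under 0.05 there were 3 (C1qa, C1qc and Cd163), against 6623 of the 15219 genes tested. By limma-voom 0 were called, against 30.7% of all genes, and by DESeq2's Wald test 2, C1qa higher and Cd163 lower, against 37.2%. CPM of the 2 groups overlapped for all 10 members, whereas 28.8% of all genes showed no overlap. The median log2 fold change was 0.58 over the members and -0.01 over all genes. Of the members 6 of 10 were positive, against 7529 of the 15219 genes tested.

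The C1q chains had the smallest adjusted p-values among the positive members. C1qa averaged 89.3 ± 40.5 CPM with the control gRNA and 46.3 ± 20.5 CPM with PBS (SD, n = 4 each), a log2 fold change of 0.95 ± 0.38 (SE) with a 95% interval of 0.13 to 1.76 and an edgeR adjusted p of 0.0705. C1qc averaged 85.0 ± 37.4 CPM with the control gRNA and 42.6 ± 25.1 CPM with PBS, a log2 fold change of 1.00 ± 0.44 and an edgeR adjusted p of 0.0993. C1qb averaged 74.3 ± 31.6 CPM with the control gRNA and 40.7 ± 22.2 CPM with PBS, with a log2 fold change of 0.87 ± 0.41 and an edgeR adjusted p of 0.123. The estimates were alike for the chains, and none passed the threshold. Cd163 ran the other way at 9.41 ± 4.50 CPM with the control gRNA and 22.3 ± 17.8 CPM with PBS, a log2 fold change of -1.24 ± 0.53 and an edgeR adjusted p of 0.0915. Without PBS library 2 its log2 fold change was -0.52, a smaller difference than with all 4 PBS libraries.

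Marco had the widest interval of the members, a log2 fold change of 1.71 ± 1.15 with a 95% interval of -0.82 to 4.24 and an edgeR adjusted p of 0.282. Cd5l had 0.85 ± 0.62 (edgeR adjusted p = 0.312), Clec4f 0.31 ± 0.47 (0.655), Vsig4 -0.31 ± 0.62 (0.740), Timd4 -0.55 ± 0.67 (0.561) and Adgre1 -0.90 ± 0.73 (0.377). The receptors Vsig4, Timd4, Adgre1 and Cd163 had negative estimates, and the secreted members, Marco and Clec4f positive ones. Single libraries decided some of these values. Without PBS library 4, edgeR called 4 of 10 members higher with the control gRNA, Marco at a log2 fold change of 3.66 (adjusted p = 0.0372), C1qa at 1.27 (0.0294), C1qb at 1.26 (0.0379) and C1qc at 1.39 (0.0361), against 27.4% of all genes in that fit. Without control gRNA library 4, C1qa alone of the 10 was called, at 1.15 (adjusted p = 0.0367), against 28.5% of all genes. Without PBS libraries 2 and 3, the members called were 0 of 10, against 14% of all genes, and their median log2 fold change was 0.34.

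Livers given the Pdx1 gRNA had no member past the threshold against PBS either. By edgeR 0 of 10 members were called, against 22.1% of all genes tested. At an unadjusted p under 0.05 there were 0 members, against 5447 of the 15219 genes. DESeq2 and limma-voom called 0 members as well, against 27.6% and 19.9% of all genes. CPM overlapped for all 10, whereas 21.4% of all genes showed no overlap. Clec4f averaged 91.0 ± 38.5 CPM with the Pdx1 gRNA and 105 ± 51.2 CPM with PBS (SD, n = 4 each), a log2 fold change of -0.21 ± 0.47 (95% interval -1.24 to 0.82, edgeR adjusted p = 0.783). The C1q chains were centred on 0, with log2 fold changes of 0.07 ± 0.37 for C1qa, -0.03 ± 0.41 for C1qb and 0.01 ± 0.44 for C1qc and 95% intervals whose upper ends were 0.88, 0.85 and 0.96. Adgre1 had -1.44 ± 0.75 (edgeR adjusted p = 0.188), Cd163 -1.01 ± 0.53 (0.191), Vsig4 -0.90 ± 0.63 (0.327), Timd4 -0.87 ± 0.68 (0.377), Marco 0.98 ± 1.14 (0.570) and Cd5l 0.19 ± 0.61 (0.849). The median log2 fold change of the members was -0.12, against -0.06 over all genes. Of the members 4 of 10 were positive, against 7034 of the 15219 genes. Without PBS libraries 2 and 3, 0 of 10 were called, against 7.9% of all genes, and the median was -0.32.

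Set against the control gRNA, the Pdx1 gRNA gave lower estimates for 9 of the 10 members, again with none called. Over all genes 7471 of 15219 estimates were positive. The members varied together from library to library, so these 9 are not independent observations. By edgeR 0 of 10 members were called, against 0% of all genes tested (918 of 15219 had an unadjusted p under 0.05). The targeted gene, Pdx1, was itself not called here, at a log2 fold change of 7.42 ± 1.11 (edgeR adjusted p = 0.444). Its CPM did not overlap between the groups, and it passed the filter on low counts only through the Pdx1 gRNA libraries. The unadjusted p was under 0.05 for 3 members, the C1q chains. DESeq2 called 0 members, against 0.092% of all genes, and limma-voom 0, against 0%. CPM overlapped for all 10 members, whereas 6.65% of all genes showed no overlap. C1qa averaged 48.5 ± 16.6 CPM with the Pdx1 gRNA and 89.3 ± 40.5 CPM with the control gRNA (SD, n = 4 each), a log2 fold change of -0.88 ± 0.37 and an edgeR adjusted p of 0.809. C1qb had -0.90 ± 0.41 and C1qc -0.99 ± 0.44, both with an edgeR adjusted p of 0.809. The other negative estimates ran from -0.32 ± 0.67 for Timd4 to -0.73 ± 1.12 for Marco, and Cd163 alone was positive at 0.23 ± 0.53. The median was -0.62 over the members and -0.01 over all genes. Each group enters 2 of the 3 comparisons, so the high control gRNA libraries 2 and 3 enter both this one and that of control gRNA against PBS.

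**Figure D3:**
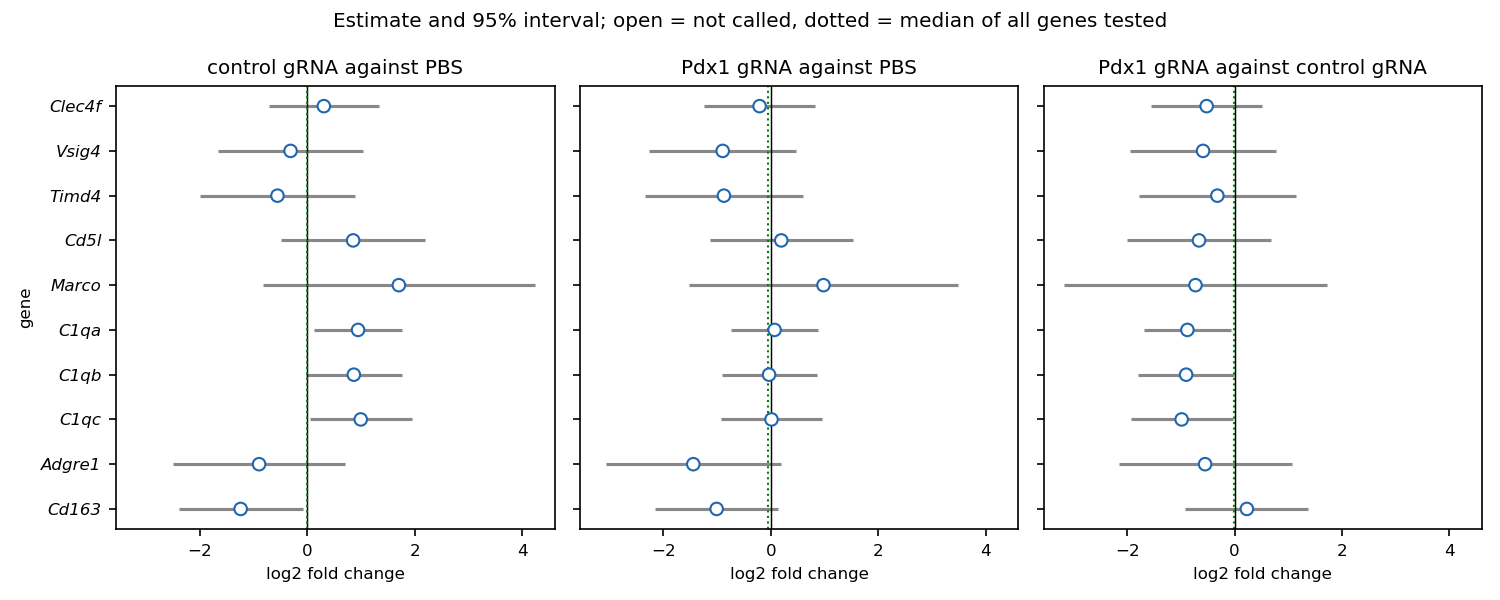
Log2 fold change of each gene in the 3 comparisons, with its 95% interval from edgeR (horizontal axis: log2 fold change; dotted line: median of all genes tested). All 30 circles are open, since none was called, and Marco has the longest interval, -0.82 to 4.24 in control gRNA against PBS.

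Because the members varied together, each was also divided by Clec4f within the library, which removes what a library shares with Clec4f. This step was chosen after the values were seen, its values are counts per count of Clec4f and not per length, and it is given without a test. The C1q chains stood higher against Clec4f in control gRNA livers. C1qa was at 0.596 to 1.01 counts per Clec4f count with the control gRNA, against 0.322 to 0.554 with PBS. C1qc was at 0.553 to 0.986 with the control gRNA and 0.331 to 0.473 with PBS, and C1qb at 0.460 to 0.857 with the control gRNA and 0.321 to 0.450 with PBS. Cd163 ran the other way, at 0.0613 to 0.101 with the control gRNA and 0.105 to 0.342 with PBS. For these 4 of 9 members the groups did not overlap, against 3.54% of the 15218 other genes tested. The gaps were narrow, such as between 0.460 with the control gRNA and 0.450 with PBS for C1qb. PBS libraries 1 and 4 had 0.554 and 0.477 for C1qa and 0.387 and 0.450 for C1qb. They had 0.389 and 0.473 for C1qc and 0.163 and 0.105 for Cd163. PBS libraries 2 and 3 held the higher Cd163 ratios, 0.342 and 0.239. The share over all genes was not computed without PBS libraries 2 and 3. The share over all genes is low in part by arithmetic, since a gene that does not follow Clec4f takes on its spread when divided by it.

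With the Pdx1 gRNA the same ratios were 0.481 to 0.603 for C1qa, 0.401 to 0.519 for C1qb, 0.444 to 0.521 for C1qc and 0.0686 to 0.136 for Cd163. Against PBS they overlapped for all 9 members, with 5.19% of all genes apart. Against control gRNA they were apart for 1 of 9, C1qc, which was lower with the Pdx1 gRNA, with 0.164% of all genes apart. Timd4 per Clec4f was 0.0609 to 0.0675 with the Pdx1 gRNA, 0.0346 to 0.0744 with the control gRNA and 0.0588 to 0.145 with PBS. The Pdx1 gRNA libraries thus differed little in this ratio although their Timd4 level spanned 2.46-fold. Marco per Clec4f stayed widely spread, at 0.165 to 0.657 with the Pdx1 gRNA, 0.146 to 0.642 with the control gRNA and 0.0367 to 0.387 with PBS. Adgre1 per Clec4f was 0.0778 to 0.116 with the Pdx1 gRNA, 0.0768 to 0.134 with the control gRNA and 0.0678 to 0.379 with PBS. Among the chains themselves, C1qa per C1qb was 1.16 to 1.32 with the Pdx1 gRNA, 1.13 to 1.30 with the control gRNA and 1.00 to 1.43 with PBS.

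**Figure D4:**
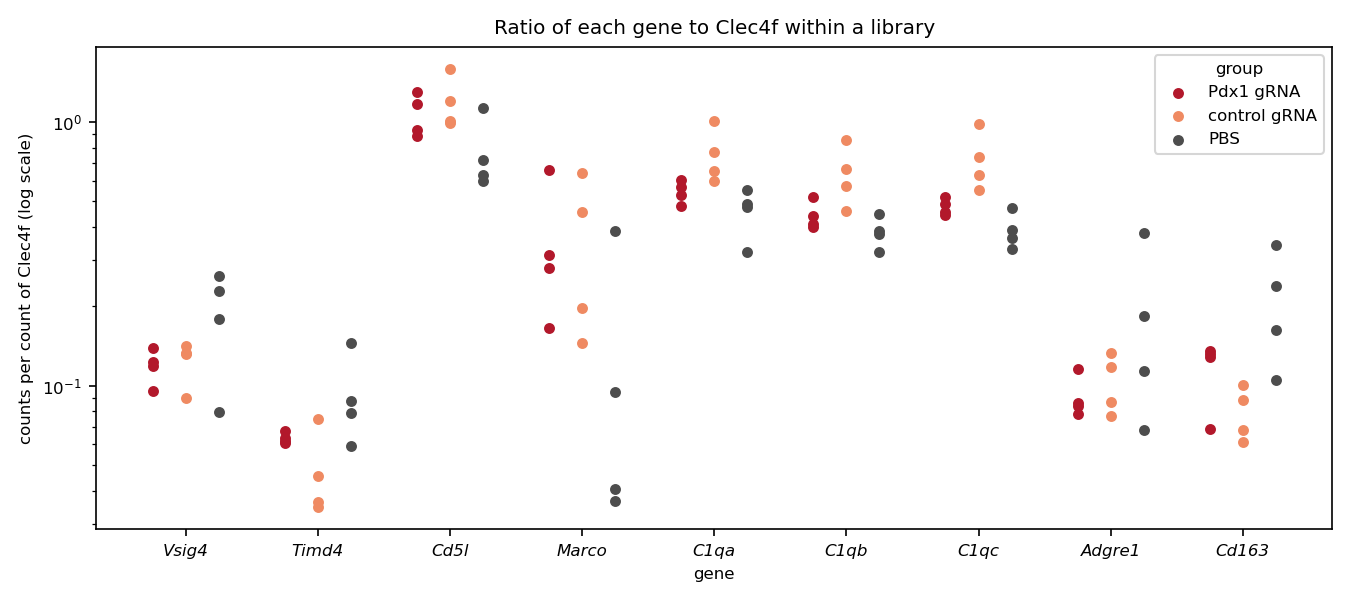
Counts of each gene per count of Clec4f in the same library (log axis), 4 points per group and gene. The control gRNA points of C1qa, C1qb and C1qc lie above the PBS points and those of Cd163 below them, as in the 0.596 to 1.01 against 0.322 to 0.554 of C1qa, while Marco stays spread in all 3 groups.

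Other genes of Kupffer cells, listed by name, were set beside the members. In control gRNA against PBS, 1 of 10 rose and 1 of 10 fell, with a median log2 fold change of -0.08. Over all genes 16.3% rose and 15.8% fell in this comparison, and 11.7% rose and 10.4% fell with the Pdx1 gRNA against PBS. The list counts from all 12 libraries, here and below, are read against these shares. Without PBS libraries 2 and 3, 1118 of 16170 genes rose and 1140 fell with the control gRNA against PBS. With the Pdx1 gRNA against PBS, 728 rose and 549 fell in that fit. List counts without these 2 libraries are read against those numbers. Hmox1, the haem oxygenase, rose to 64.7 CPM with the control gRNA, against 27.1 CPM with PBS, a log2 fold change of 1.25 ± 0.33 (edgeR adjusted p = 0.0127). The complement component C6 fell by 2.35 on the log2 scale (edgeR adjusted p = 0.0378), at 27.2 CPM with the control gRNA and 139 CPM with PBS. Both calls were lost without PBS libraries 2 and 3, where 1 of 10 fell, Stab1, and C6 was 346 CPM in PBS library 2 and 14.8 CPM in PBS library 1. Stab1, Cd207 and Clec1b were not called in this comparison. With the Pdx1 gRNA against PBS, 1 of 10 rose (Hmox1) and 2 fell (Stab1 and Mrc1, both endocytic receptors that sinusoidal endothelium also expresses). In that comparison 0 of 10 rose and 1 fell, Stab1, without PBS libraries 2 and 3.

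Of 9 transcription factor genes of the Kupffer cell programme, 2 rose and 1 fell in control gRNA against PBS (median log2 fold change 0.26), 3 of 9 in all against 32.1% of all genes. Id3, an inhibitor of basic helix-loop-helix factors, had 104, 108, 59.1 and 97.3 CPM in Pdx1 gRNA libraries, 64.4, 72.0, 109.8 and 91.1 CPM in control gRNA libraries, and 44.8, 26.3, 29.8 and 38.8 CPM in PBS libraries. All virus libraries lay above all PBS libraries. Id3 rose to 84.3 CPM with the control gRNA, against 35.0 CPM with PBS, a log2 fold change of 1.27 ± 0.24 (edgeR adjusted p = 0.00223), and to 92.1 CPM with the Pdx1 gRNA, with 1.40 ± 0.24 (0.00205). Spi1, which encodes PU.1, rose to 17.0 CPM with the control gRNA, against 7.23 CPM with PBS (log2 fold change 1.23 ± 0.34, edgeR adjusted p = 0.0164). Spi1 averaged 8.68 CPM with the Pdx1 gRNA, where it was not called against PBS (0.26 ± 0.34), and 1 of the 9 genes, Id3, rose in that comparison. Rxra fell by 0.99 ± 0.24 on the log2 scale with the control gRNA (edgeR adjusted p = 0.00876). Rxra averaged 500 CPM with PBS, against 7.23 CPM for Spi1. Which liver cells the transcripts of this list came from was not tested. Zeb2 was not called. Without PBS libraries 2 and 3 the call of Id3 remained and those of Spi1, at 0.98, and Rxra, at -0.55, did not.

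Signals of the Kupffer niche were read in the same way. Of 15 genes 0 rose and 2 fell in control gRNA against PBS, with a median of -0.18. Bmp2, a ligand made by sinusoidal endothelium, had 9.84 CPM with the control gRNA and 18.6 CPM with PBS, and fell by 0.92 ± 0.32 on the log2 scale (edgeR adjusted p = 0.0408). Notch2 fell by 0.66 ± 0.22 (0.0338), and both calls were lost in 12 of 22 alternatives. Without PBS libraries 2 and 3 the 1 call among the 15 was Dll4, lower with the control gRNA. The growth factor receptor Csf1r, on which macrophage survival rests, averaged 35.2 CPM with the Pdx1 gRNA, 55.1 CPM with the control gRNA and 69.5 CPM with PBS, and was called in none of the 3 comparisons. Its ligand Csf1 had 0.46 ± 0.24 and the Notch ligand Dll4 -0.94 ± 0.34 with the control gRNA against PBS, neither called. Summed markers of sinusoidal endothelium, the cells that supply part of this niche, were 109 to 212 CPM with the Pdx1 gRNA, 124 to 242 CPM with the control gRNA and 241 to 648 CPM with PBS. PBS libraries 2 and 4, high for most Kupffer members, were also the highest for these endothelial markers, at 521 and 648 CPM. Their part in the members' values was not tested.

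Part of the general macrophage genes were higher with the control gRNA. Of 14, 6 rose and 0 fell in control gRNA against PBS (Aif1, Cd14, Cd68, Ctss, Fcer1g and Fcgr1), with a median of 0.87. Fcer1g, the signalling chain of Fc receptors, had 11.3, 7.30, 6.27 and 12.6 CPM with the Pdx1 gRNA, 14.2, 32.6, 23.4 and 12.2 CPM with the control gRNA, and 7.13, 7.41, 5.33 and 11.0 CPM with PBS. All control gRNA libraries lay above all PBS libraries, and Fcer1g rose by 1.41 ± 0.34 on the log2 scale (edgeR adjusted p = 0.00829). Cd68, a lysosomal protein of macrophages, rose to 21.8 CPM with the control gRNA, against 9.29 CPM with PBS (1.22 ± 0.37, edgeR adjusted p = 0.0237). In 0 of these 14 genes was a call made without PBS libraries 2 and 3, where the median was 0.61. For the Pdx1 gRNA against PBS 0 of 14 were called, with a median of 0.04.

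Genes of recruited monocytes and lipid-associated macrophages had the largest median among these lists. In control gRNA against PBS, 9 of the 12 tested (of 14 listed) rose and 0 fell, with a median of 1.57. Gpnmb, a glycoprotein of lipid-laden macrophages, had 12.2, 13.6, 1.51 and 14.1 CPM with the Pdx1 gRNA, 5.75, 16.3, 14.1 and 16.4 CPM with the control gRNA, and 0.659, 0.285, 0.717 and 0.501 CPM with PBS. Every virus library exceeded every PBS library. Gpnmb had 11, 3, 7 and 7 counts in PBS libraries 1 to 4, so it passed the filter on low counts through the virus groups. Its separation is therefore not independent of that filter. The log2 fold change against PBS was 4.57 ± 0.65 for the control gRNA (edgeR adjusted p = 5.98e-04) and 4.23 ± 0.65 for the Pdx1 gRNA (0.00123). Lgals3 (galectin-3) rose to 43.0 CPM with the control gRNA, against 4.23 CPM with PBS, a log2 fold change of 3.34 ± 0.49 (edgeR adjusted p = 7.09e-04), and to 19.0 CPM with the Pdx1 gRNA, with 2.17 ± 0.48 (0.00803). Cd9 rose by 1.22 ± 0.24 and Cx3cr1 by 1.25 ± 0.39 with the control gRNA against PBS, and Plac8 rose to 18.4 CPM, against 6.46 CPM with PBS. Without PBS libraries 2 and 3, 4 of 13 tested rose, with a median of 1.11. In Pdx1 gRNA against PBS 3 of 12 rose (Gpnmb, Lgals3 and Cd9), with a median of 0.77. There 1 of 13 rose, Gpnmb, and 1 fell, Chil3, without PBS libraries 2 and 3, with a median of 0.25.

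The partners of C1q in the classical pathway, made largely by hepatocytes, had the opposite sign to the C1q chains. In control gRNA against PBS 0 of 8 rose and 6 fell (C1ra, C1rl, C1s1, C3, C4b and Serping1), with a median of -0.94. C4b, the substrate of the C1 complex, had 905, 875, 844 and 508 CPM with the Pdx1 gRNA, 477, 723, 620.2 and 612 CPM with the control gRNA, and 1297, 2462, 2085 and 2131 CPM with PBS. All virus libraries were below all PBS libraries, and C4b fell by 1.71 ± 0.25 on the log2 scale with the control gRNA (edgeR adjusted p = 7.25e-04) and by 1.35 ± 0.25 with the Pdx1 gRNA (0.00350). Reads of C4b can be shared with its close copy C4a. Serping1, the inhibitor of C1r and C1s, fell by 1.39 ± 0.31 with the control gRNA (edgeR adjusted p = 0.00537) and by 1.00 ± 0.30 with the Pdx1 gRNA (0.0341). The protease C1s1 fell by 1.08 ± 0.28 with the control gRNA (0.0115). Without PBS libraries 2 and 3, 2 of 8 fell, C4b and Serping1, with a median of -0.87. Hepatocyte markers, summed, were 50369 to 101950 CPM with the Pdx1 gRNA, 51923 to 69266 CPM with the control gRNA and 82755 to 122931 CPM with PBS, and their part in these falls was not tested. Against PBS the Pdx1 gRNA gave 3 of 8 that fell, with a median of -0.70, and 1 of 8, C4b, without PBS libraries 2 and 3.

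Genes that work with Timd4 in clearing dead cells and with Cd163 in clearing haem were also set beside them. Of 10 efferocytosis and scavenger genes, 1 rose and 2 fell in control gRNA against PBS (median -0.26). Stab2, a scavenger receptor of sinusoidal endothelium, fell by 1.29 ± 0.26 (edgeR adjusted p = 0.00313), and Pros1, a bridging ligand for dead cells, fell by 0.56 ± 0.19 (0.0369). Mfge8, another bridging protein, rose by 1.97 ± 0.61 (0.0294). The call of Mfge8 was lost in 8 and that of Pros1 in 14 of 22 alternatives, and without PBS libraries 2 and 3 Stab2 was the 1 call that remained. In the 8 haem clearance genes, 3 rose and 1 fell (median 0.65), with the same counts without PBS libraries 2 and 3. Slc48a1, which exports haem from the lysosome, rose by 1.90 ± 0.40 for the control gRNA (edgeR adjusted p = 0.00430) and by 1.86 ± 0.40 for the Pdx1 gRNA (0.00721), each against PBS. The ferritin light chain gene Ftl1 rose by 1.22 ± 0.19 (9.03e-04) with the control gRNA, with the limit that ferritin pseudogenes can share its reads, and Lrp1, a receptor for haem bound to haemopexin, fell by 1.40 ± 0.25 (0.00176). Cd163 itself, upstream in haemoglobin uptake, was lower without being called. In PBS livers Ftl1 averaged 1811 CPM and Lrp1 1417 CPM, against 22.3 CPM for Cd163. Which liver cells these transcripts came from was not tested.

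In Pdx1 gRNA against control gRNA, edgeR called 0 genes in each of these 8 lists. The medians were -0.92 for general macrophage genes, -0.91 for recruited and lipid-associated macrophage genes, -0.62 for the Kupffer members and 0.31 for the complement partners, against -0.01 over all genes. Fcer1g had -1.13 ± 0.33, Ctss -1.09 ± 0.35 and Lgals3 -1.17 ± 0.44 in this comparison. At an unadjusted p under 0.05 there were 7 of 14 general macrophage genes and 7 of 12 recruited and lipid-associated ones, against 918 of 15219 genes. The lower values were not limited to macrophage lists. Neutrophil markers had 4 of the 4 tested at this p, with a median of -1.77. T and NK cell markers had 1 of 8, with a median of -0.84.

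**Figure D5:**
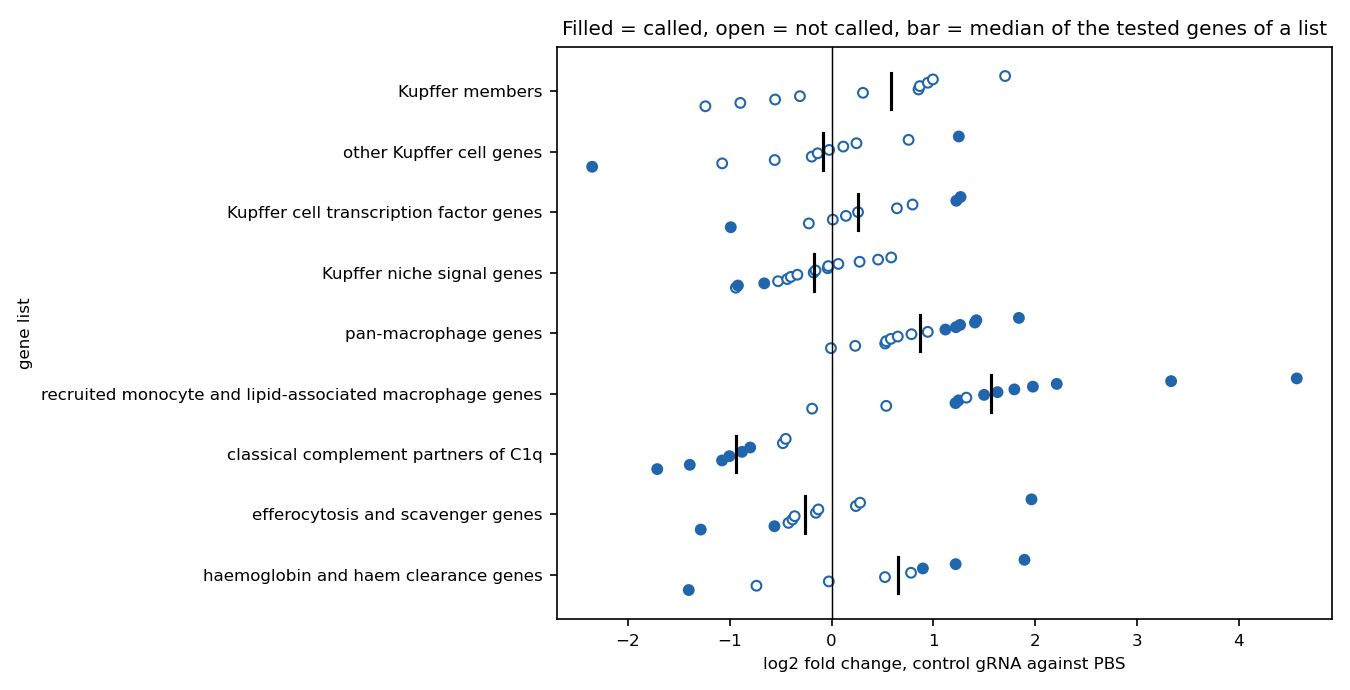
Log2 fold change in control gRNA against PBS of each tested gene of the Kupffer members and 8 further lists (filled: called by edgeR; open: not called; bar: median of the list). The 10 Kupffer members are all open, with a median of 0.58, while the recruited and lipid-associated list has a median of 1.57 with 9 of 12 filled and the complement partners a median of -0.94 with 6 of 8 filled.

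Markers of other blood cells were low beside the Kupffer members, whose CPM summed to 385, 287, 236 and 678 in Pdx1 gRNA libraries 1 to 4, 348, 1032, 916 and 290 in control gRNA libraries, and 249, 505, 179 and 744 in PBS libraries. Neutrophil markers summed to 4.32 to 7.002 CPM with the Pdx1 gRNA, 11.4 to 16.9 CPM with the control gRNA and 3.59 to 16.8 CPM with PBS. Ly6g, which defines these cells, was at 0 in all Pdx1 gRNA libraries. Only 4 of the 8 neutrophil markers passed the filter on low counts, and Ly6g did not, so its 0 says little about this group. T and NK cell markers summed to 3.40 to 9.94 CPM with the Pdx1 gRNA, 9.53 to 16.8 CPM with the control gRNA and 5.80 to 9.17 CPM with PBS. Control gRNA library 2 was the highest of the 12 for T and NK cell markers, for neutrophil markers and for the summed Kupffer members. B cell, dendritic cell, stellate cell and cholangiocyte markers overlapped between the Pdx1 gRNA and control gRNA groups. Stellate cell markers were lower in both, at 240 to 384 CPM with the Pdx1 gRNA and 302 to 351 CPM with the control gRNA, than the 386 to 531 CPM with PBS. Cholangiocyte markers summed to 9.14 to 19.9 CPM with the Pdx1 gRNA, 15.5 to 49.2 CPM with the control gRNA and 7.51 to 19.7 CPM with PBS. Of these 5 markers 3 rose in control gRNA against PBS, against 16.3% of all genes. Without PBS libraries 2 and 3, 0 of 5 were called. The part of these cells in the members' values was not tested.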

How the data were processed

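Polyadenylated liver RNA was sequenced in 12 libraries, 3 groups of 4. The values are raw counts per gene, deposited as whole numbers without normalization, 1 table per library. Per the file headers they were made with featureCounts 1.4.6-p4 on GENCODE M13, without regard to strand. Per the submitters' processing notes, Trimmomatic 0.32 and STAR 2.4.1a were used with builds GRCm38 and mm10. A later GENCODE release gave symbols, through the gene ID, for 50376 of 50600 genes. The 66 pairs of libraries differed by a chi-square per degree of freedom of 19.3 to 300, so none was a copy.

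Counts were filtered with filterByExpr (minimum count 10), scaled by TMM and fitted in 1 model over all 12 libraries with edgeR 4.0.16 in R 4.3.3 (quasi-likelihood test, robust, two-sided). Benjamini-Hochberg adjustment covered all 15219 genes, and calls needed an adjusted p under 0.05. "Rose" and "fell" are used of called genes. CPM and RPKM use TMM-scaled library sizes, except Xist and Ddx3y, which use total counts. Values are mean ± SD and log2 fold changes ± SE. Beside the 10 members, the rule named up to 3 genes of each list by smallest p in control gRNA against PBS and up to 2 in Pdx1 gRNA against control gRNA, the 5 non-members closest in pattern, and Pdx1. A few items are not reported here. Other genes named in a list's count were named because they were called. The members, the lists and the alternatives (including leaving out PBS libraries 2 and 3) were chosen with earlier results of these data known. Alternatives were other scalings and filters, DESeq2 1.42.0, limma-voom (limma 3.58.1), a fold threshold of 1.5, only the 8 libraries compared, a replicate block and each library left out. Genes with few counts, such as Gpnmb with PBS, carry counting error as well. Promoter sequences are from RefSeq.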

Additional observations from a re-analysis of the deposited data

Results flagged for a closer look

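Within a group of 4 libraries, a value was marked when its gap to the nearest other library relative to the group's range passed Dixon's 95% critical value for 4 samples. For independent, normally distributed values chance marks about 1 group in 20. Here 13 of 141 groups were marked, of which 3 of the 30 groups of Kupffer members. The rule was applied to CPM without a log, and the genes share libraries, so no excess over chance can be read from this.

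Marco stood out at 94.2 CPM in Pdx1 gRNA library 4, where the other 3 libraries had 15.8 to 20.1 CPM. It stood out again at 60.0 CPM in PBS library 4, above 2.05 to 6.95 CPM in the other PBS libraries. Cd163 stood out at 48.8 CPM in PBS library 2, above 11.9 to 16.3 CPM in the others.

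Among the genes of the lists, high values were Mfge8 at 97.1 CPM in Pdx1 gRNA library 4, Rxra at 280.1 CPM in control gRNA library 2 and Dll4 at 11.4 CPM in PBS library 4. In Pdx1 gRNA livers, low values were Gpnmb at 1.51 CPM in library 3, C4b at 508 CPM in library 4 and C1s1 at 144 CPM in library 4. In control gRNA livers, Hmox1 was low at 46.4 CPM in library 4. In PBS livers, Lrp1 was low at 751 CPM and Slc48a1 at 27.3 CPM, both in library 1. Pdx1 itself was at 0.111 CPM, from 2 counts, in control gRNA library 4 and at 0 in the other control gRNA libraries. With the others at 0, the rule marks any value above 0.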

How the results depend on the processing

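The fold changes of the members in all comparisons, and of the genes named by rule in the comparison that named them, were recomputed under 22 alternatives. Other printed fold changes were not. Of 1540 alternative values over 70 results, 1416 kept their direction and side of the threshold, 77 lost a call, 16 gained one and 31 changed sign. All 31 that changed sign were members that had not been called.

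The members called in control gRNA against PBS were 0 of 10 in the main analysis, 2 with the DESeq2 Wald test, and 0 to 4 with 1 library left out. In the other 2 comparisons the count was 0 under all 22 alternatives.

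Outside the leave-one-out fits, the log2 fold change of Timd4 in Pdx1 gRNA against control gRNA was 0.20 with limma-voom. In Pdx1 gRNA against PBS and without PBS libraries 2 and 3, Cd5l was at -0.13, C1qa at -0.25 and C1qc at -0.26. In the same comparison C1qb was at 0.0203 with upper-quartile factors, 0.0448 with limma-voom and 0.0337 with the replicate block, and C1qc at -0.00113 with DESeq2 size factors and -0.00144 with the DESeq2 Wald test. The cause was not tested.

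With 1 library left out, log2 fold changes in control gRNA against PBS ran from -0.0824 to 0.55 for Clec4f, -0.73 to 0.23 for Vsig4, -1.37 to 0.12 for Timd4 and -1.24 to 0.0660 for Adgre1. In Pdx1 gRNA against PBS they ran from -0.54 to 0.0363 for Clec4f, -0.30 to 0.77 for Cd5l, -0.10 to 2.93 for Marco, -0.17 to 0.39 for C1qa, -0.31 to 0.36 for C1qb and -0.26 to 0.41 for C1qc. In Pdx1 gRNA against control gRNA they ran from -0.63 to 0.49 for Timd4, -1.79 to 0.14 for Marco and -0.17 to 0.56 for Cd163.

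The labels do not say that a replicate number marks a shared litter, day or batch. Only 3 of 12 pairs with the same number correlated above 0.1, and for 2 of 12 libraries the closest library bore the same number. With the replicate number as a block, 0 members were called in each comparison.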
